A study of Mus musculus with 47 samples.

Results

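SI clones of reprogramming mouse cells were compared at d23, that is after 21 d with doxycycline and 2 d without it, with feeder libraries of mouse embryonic fibroblasts. The comparison asks how close to fibroblasts the clones stood after the drug was withdrawn, and in which genes they still differed. It rests on 4 SI libraries (SI1 to SI4, a clone each) and 3 feeder libraries, 7 of the 47 libraries of the series. The members were chosen by their labels alone. The study sampled 4 SI and 4 SC clones over a reprogramming course, and the labels do not spell these class names out. Messenger RNA was sequenced on the Illumina platform. The SI and SC libraries come from secondary reprogramming cells, which are fibroblasts treated with doxycycline, and the feeders had 0 d of the drug. The labels name neither the genes that doxycycline turns on nor the strain, and they do not say whether the feeders share a strain with the clones, were growth-arrested or lay beneath the clones in culture. They also do not say whether libraries with different numbers came from separate cultures, so each p-value measures only the spread between these libraries. SI d21 (21 d with the drug and 0 d without, n = 4), SI d22 (1 d without), SI d27 (27 d with the drug) and SC d23 (the drug schedule of SI d23, n = 4) serve as points of orientation.

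When fibroblasts are driven towards pluripotency they first lose mesenchymal genes and gain epithelial ones, a mesenchymal-to-epithelial transition. Fibroblasts make collagen-rich matrix and actin stress fibres, and hold the zinc finger factors Zeb1, Zeb2, Snai1 and Snai2, which bind E-box sequences in the promoters of E-cadherin and other epithelial genes and repress them. Epithelial cells are joined by cadherin, claudin and desmosome proteins and carry keratin filaments, and primary fibroblasts also release chemokines and express interferon-induced genes in culture.

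The promoters below belong to genes on which the results turn, and are shown for the motifs named above: Epcam and Cldn4 (junction proteins), Krt8 and Krt18 (the keratin pair of simple epithelia), and Myl9 and Cnn2 (contractile proteins, chosen after the values and motifs were seen). Each run is the 250 bases before the gene's first listed start in RefSeq (GRCm38.p6), 5′ to 3′ on the gene's strand. Capitals mark the E-box, CAGGTG or CACCTG, in the first 4 genes, and the CArG box, the serum response factor motif, in the last 2.
Epcam: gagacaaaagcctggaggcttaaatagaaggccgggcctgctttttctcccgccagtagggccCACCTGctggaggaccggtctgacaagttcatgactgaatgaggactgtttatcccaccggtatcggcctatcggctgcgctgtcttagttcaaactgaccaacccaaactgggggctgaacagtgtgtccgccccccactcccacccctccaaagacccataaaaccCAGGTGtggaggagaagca
Cldn4: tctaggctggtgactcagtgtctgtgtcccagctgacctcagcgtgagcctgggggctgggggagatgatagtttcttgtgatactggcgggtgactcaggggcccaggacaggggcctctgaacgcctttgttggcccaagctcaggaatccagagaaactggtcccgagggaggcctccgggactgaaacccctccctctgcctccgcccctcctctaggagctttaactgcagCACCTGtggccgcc
Krt8: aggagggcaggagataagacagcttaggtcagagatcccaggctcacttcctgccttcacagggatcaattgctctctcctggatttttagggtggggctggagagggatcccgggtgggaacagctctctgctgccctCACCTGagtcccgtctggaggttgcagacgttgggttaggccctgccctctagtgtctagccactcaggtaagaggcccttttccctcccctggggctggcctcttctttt
Krt18: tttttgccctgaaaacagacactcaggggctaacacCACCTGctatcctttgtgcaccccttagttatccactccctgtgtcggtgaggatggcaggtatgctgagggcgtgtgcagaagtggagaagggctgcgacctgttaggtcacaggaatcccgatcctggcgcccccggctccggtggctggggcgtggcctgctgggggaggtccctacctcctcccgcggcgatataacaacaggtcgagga
Myl9: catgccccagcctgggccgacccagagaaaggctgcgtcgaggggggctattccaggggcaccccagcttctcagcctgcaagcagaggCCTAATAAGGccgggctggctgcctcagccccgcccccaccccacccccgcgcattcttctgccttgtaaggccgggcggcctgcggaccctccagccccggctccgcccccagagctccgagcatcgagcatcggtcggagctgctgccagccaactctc
Cnn2: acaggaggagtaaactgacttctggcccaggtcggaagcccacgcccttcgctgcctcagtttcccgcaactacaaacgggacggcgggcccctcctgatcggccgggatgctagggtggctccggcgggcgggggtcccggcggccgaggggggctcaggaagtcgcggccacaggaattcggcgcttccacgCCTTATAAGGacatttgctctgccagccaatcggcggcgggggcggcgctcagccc
The Epcam window lies at chr17:87635729-87635978 on the plus strand, with E-boxes that begin 187 and 19 bases before the start. The Cldn4 window, at chr5:134946935-134947184 on the minus strand, holds an E-box 14 bases before the start. The Krt8 window is at chr15:102004343-102004592 on the minus strand with an E-box at 111 bases, and the Krt18 window at chr15:102027966-102028215 on the plus strand with an E-box at 214 bases. The Myl9 window is at chr2:156775214-156775463 on the plus strand with a CArG box at 161 bases, and the Cnn2 window at chr10:79988350-79988599 on the plus strand with a CArG box at 56 bases. With both strands searched, an E-box was found in 17.1% of the 27018 first-start promoters of all genes, and in 11 of 19 (57.9%) of the epithelial junction genes with a promoter in RefSeq's table, 4 of 5 simple keratins (80%), 1 of 14 contractile genes (7.14%) and 2 of 17 collagens (11.8%). A CArG box was found in 1.4% of all promoters and in 2 of the 14 contractile genes (14.3%). A match describes letters in the window and shows neither binding nor its absence.

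The deposited values are read densities per gene length and library (RPKM). The 7 libraries summed to 230979 to 245695 RPKM, and 10909 to 11597 genes reached 1 RPKM. Whole-read steps in the low values of 6 libraries gave 26.8 to 75.9 megareads, up to a whole multiple. The fibroblast label was checked with 10 markers, of which 10 reached 1 RPKM in both groups; their summed level was 4709, 5138, 7080.2 and 4043 RPKM in SI1 to SI4 and 6250.2 to 6756 RPKM in the feeders. The 8 epithelial markers summed to 2283, 1493, 118 and 2050.4 RPKM in SI1 to SI4 and 5.47 to 5.56 RPKM in the feeders, and the 8 pluripotency markers to 98.2, 77.8, 10.01 and 117 RPKM, against 0.24 to 1.13 RPKM. Most of each pluripotency sum in the clones was Pou5f1 alone, at 88.7, 71.2, 7.41 and 103 RPKM. Utf1 reached at most 5.05 RPKM in a clone, and each other pluripotency marker at most 2.76 RPKM. Endothelial markers stayed under 1 RPKM each in all 7 libraries, and 7 macrophage markers summed to 26.5 to 47.9 RPKM in SI d23 and 41.5 to 42.8 RPKM in the feeders. SI3 stands apart. Across genes (which are not independent replicates) it correlated with the other SI d23 libraries at Pearson's r of 0.917 to 0.942, against 0.986 to 0.991 among SI1, SI2 and SI4 and 0.995 to 0.998 among the feeders, so each result is given with and without SI3 where it matters.

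SI d23 had the smallest mean distance from the feeders of all sampled SI and SC groups, but every clone remained outside the spread of the feeders. Distance was measured in each library as the root mean square difference from the feeder mean over 13537 genes, on the log2(RPKM + 1) scale. It was 0.767, 0.675, 0.363 and 0.741 in SI1 to SI4 at d23, and 0.102 to 0.142 in each feeder library set against the other feeders. SI3 at d23 had the smallest distance of any clone library, and every feeder distance was below it. The other clones at d23 were not the next nearest. On the drug at d14, SI2 (0.544), SI3 (0.595) and SC4 (0.587) all lay nearer to the feeders than SI1, SI2 and SI4 at d23. The SC d14 group averaged 0.757 ± 0.145 (SD, n = 4). SI d23 averaged 0.636 ± 0.186 and SI d21 1.14 ± 0.182 (SD, n = 4 each), a difference of -0.505 (exact two-sided permutation test, p = 0.02857, which is the smallest that 70 assignments allow and the same after adjustment over 2 tests). With the 4 clones as pairs the difference was the same and the exact sign-flip p was 0.125, again the smallest possible. Against SC d23, which averaged 1.10 ± 0.243, the difference was -0.468 (exact permutation test, p = 0.02857). With SI clones left out in turn, these differences ran from -0.548 to -0.414 and from -0.512 to -0.377, with an exact p of 0.0571, the smallest 3 against 4 allow. Along the SI course, distance averaged 0.818 at d14, 1.14 at d21, 0.769 at d22 and 0.636 at d23, and was 1.06 in clones kept on the drug to d27. SI3 was also the nearest SI clone at d21, at 0.868 against 1.22 to 1.24 in the other 3. By genes, 88.7%, 91.3%, 97.7% and 89.5% were within 2-fold of the feeder mean in SI1 to SI4 at d23 (with 1 RPKM added), against 66.2% to 80.1% in SI d21. Genes 4-fold or more above the feeder mean numbered 288, 203, 20 and 266 in SI1 to SI4, and those 4-fold or more below it 61, 45, 20 and 47. In SI1, SI2 and SI4 the far genes were thus mostly above the feeders.

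**Figure D1:**
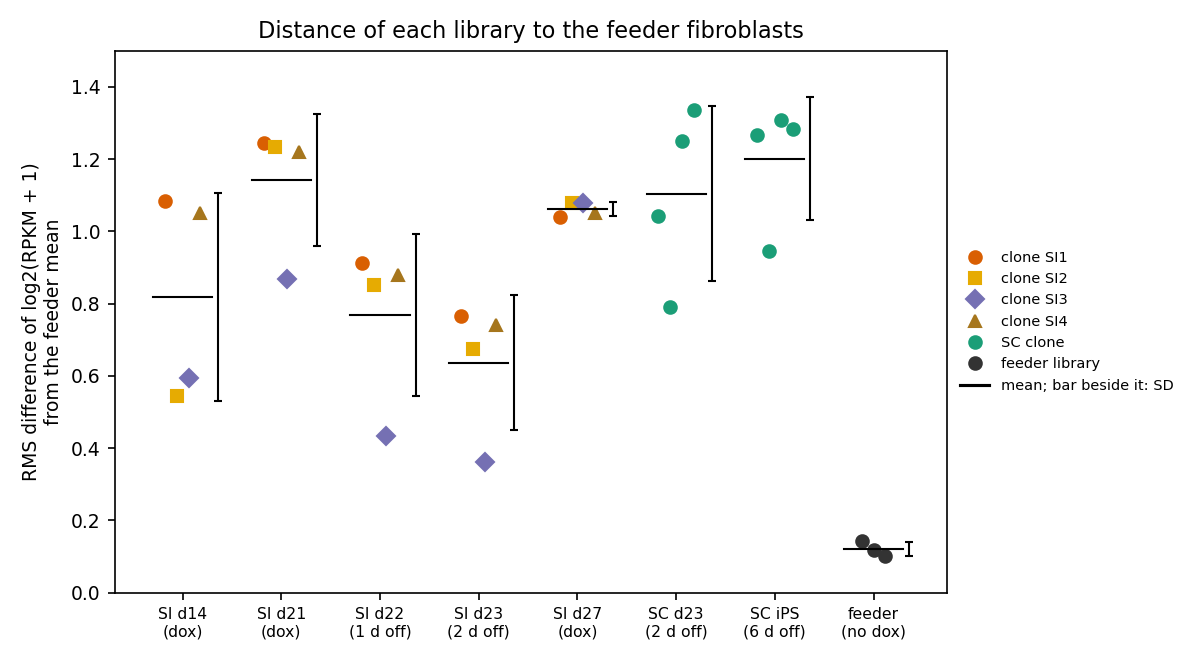
Distance of each library from the feeder mean (root mean square difference of log2(RPKM + 1) over 13537 genes, y axis) by group (x axis), with a point per library, a line at the group mean and a bar beside it for the SD. SI d23 spans 0.363 to 0.767, under SI d21 and SC d23 on average and above the feeders at 0.102 to 0.142.

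Over all genes, 2492 of the 11741 tested were higher in SI d23 than in feeders (21.2%) and 1715 were lower (14.6%), at a limma adjusted p under 0.05, 35.8% in either direction. Counts of list members called against feeders, given below, stand beside these shares. Differences were taken between values of log2(RPKM + 1), a scale that shrinks the change of low genes. At least 2-fold differences were fewer, 586 higher (4.99%) and 277 lower (2.36%). In 77 genes (0.656%) every SI library lay at least 2-fold above every feeder, and in 61 (0.520%) at least 2-fold below. With libraries rescaled by their median ratio, which moved the median difference of all genes by less than 0.1, to -0.03 from 0.06, the split was 2107 higher and 2301 lower. The counts depended on the libraries used. Without SI3, 4671 genes were called higher (39.9%) and 2946 lower (25.2%) of 11695, 65.1% in all, and 7.70% and 3.33% were at least 2-fold higher and lower. Leaving out SI1, SI2 or SI4 gave 1207, 1157 and 1098 higher and 1129, 1253 and 1057 lower, and leaving out feeder 1, 2 or 3 gave 765, 261 and 275 higher and 683, 355 and 349 lower. Calls of single genes given below held with each of the 7 libraries left out in turn, where the gene still passed the filter of 1 RPKM in 3 libraries, unless a library is named. The filter was applied anew in each leave-out, and where the number of a list's members tested then differed it is given after the count. A gene under 1 RPKM in every feeder could be tested only because it was higher in the SI clones. Its place among the higher genes thus follows in part from the filter, and this holds for single genes named below as well. Such members are counted beside the lists in which they weigh.

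**Figure D2:**
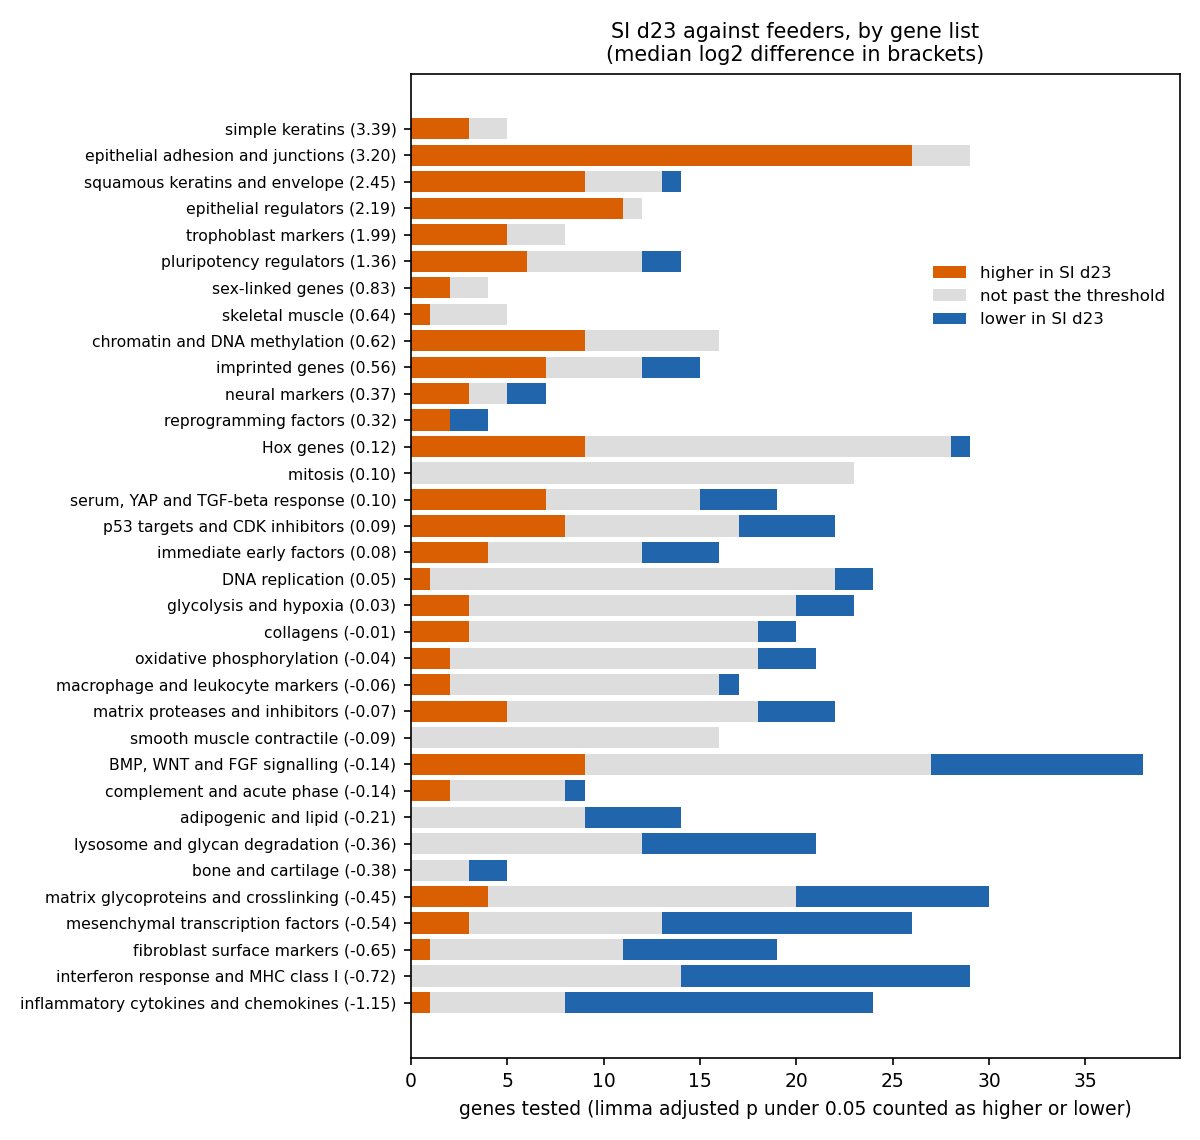
Genes of each list that were called higher (orange) or lower (blue) in SI d23 than in feeders by limma at an adjusted p under 0.05, of those tested (grey: not past the threshold), with the list's median log2 difference in brackets. In the junction list 26 of 29 genes were called higher (23 of the 29 were under 1 RPKM in every feeder, and so could be tested only through the SI clones), inflammatory and interferon lists hold lower calls (16 of 24 and 15 of 29), and none of 16 contractile or 23 mitosis genes was called.

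The contractile and collagen genes that define an activated fibroblast stood near feeder level. None of the 16 tested contractile genes passed the test against feeders, with a median difference of -0.09, against 0.06 for all genes tested. An unadjusted p under 0.05 was reached by 1 on the higher and 1 on the lower side. Without SI3, 1 was called higher and 7 lower, and in every other leave-out 0 were called. The same 16 genes had all been lower in SI d21 than in SI d23 (16 of 16 called higher at d23, in every leave-out and with clones as a block; 22.7% of the 11796 genes tested in that comparison were called higher and 32.0% lower, 54.6% in all). Both comparisons share the SI d23 libraries. Acta2 encodes smooth muscle actin, the marker of myofibroblasts. Acta2 was 1255, 1559, 2369 and 1292 RPKM in SI1 to SI4, against 1889, 1889 and 1724 RPKM in the feeders, and 109 to 484 RPKM in SI d21. SI3 lay above the feeders and the other 3 clones below them. Myl9, the regulatory light chain of smooth muscle myosin, was 240.1, 317, 492 and 283 RPKM, against 407, 410.2 and 363 RPKM in the feeders, and calponin 2 (Cnn2), an actin-binding protein, 179, 209, 221 and 192 RPKM against 229, 231 and 221 RPKM; these are the genes whose promoters with a CArG box are printed above. For Acta2 the log2 difference from feeders was -0.23 ± 0.22 (SE), limma adjusted p = 0.433; without SI3 it was -0.43, limma adjusted p = 0.00989. From d21 Acta2 rose by 3.00 ± 0.43 (SE), limma adjusted p = 0.000685.

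Collagens gave the same level picture. Of 20 tested, 3 were higher and 2 lower in SI d23, with a median difference of -0.01; without SI3 4 were higher and 7 lower, and without the other libraries 1 to 3 were higher and 0 lower. Against SI d21, 19 of 20 were higher at d23, and 16 without SI1, SI2 or SI4. Col1a1, the main chain of type I collagen, was 1619, 1681, 1905 and 1155 RPKM in SI1 to SI4, against 1550.2, 1783 and 1627 RPKM in the feeders, and 441 ± 155 RPKM in SI d21 (SD, n = 4). The SI and feeder libraries overlapped, and the difference was -0.08 ± 0.17 (SE), limma adjusted p = 0.74. Its partner chain Col1a2 was 479.9, 499, 691 and 404 RPKM in SI1 to SI4 and 607, 632 and 619.8 RPKM in the feeders, a difference of -0.28 ± 0.17 (SE), limma adjusted p = 0.215. Without SI3, which lay above all feeders, the Col1a2 difference was -0.43, limma adjusted p = 0.004.

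A few matrix genes passed beyond the feeders. Col7a1, the anchoring fibril collagen of the epithelial basement membrane, was 47.5, 66.2, 36.9 and 53.9 RPKM in SI1 to SI4, against 16.8, 20.9 and 20 RPKM in the feeders. Every SI library lay above every feeder, with a difference of 1.34 ± 0.19 (SE), limma adjusted p = 0.00509, and SI d21 had 3.34 to 8.21 RPKM. Postn, a matrix protein induced by TGF-beta, was 138, 119.8, 199 and 113 RPKM, against 52.2, 48.7 and 48.8 RPKM in the feeders (log2 difference 1.46 ± 0.19 SE, limma adjusted p = 0.00416). Tgfbi, also a TGF-beta-induced matrix protein, was 39.1, 42.9, 48.2 and 35.3 RPKM in SI1 to SI4, against 12.9, 11.5 and 13.5 RPKM (log2 difference 1.63 ± 0.11 SE, limma adjusted p = 0.000972). Neither gene overlapped between the groups. Tgfb2, which encodes a TGF-beta ligand, was 35.3, 39.7, 23.7 and 27.4 RPKM, against 5.31, 5.05 and 4.61 RPKM in the feeders, without overlap (log2 difference 2.41 ± 0.17 SE, limma adjusted p = 0.000972). SI d21, at 3.26 to 7.95 RPKM of Tgfb2, overlapped the feeders. A link between Tgfb2 and the levels of the matrix genes was not tested. Elastin (Eln), the core of elastic fibres, was 4.57, 3.38, 3.51 and 2.98 RPKM against 0.72, 0.88 and 0.63 RPKM in the feeders (log2 difference 1.39 ± 0.13 SE, limma adjusted p = 0.00173). Being under 1 RPKM in every feeder, Eln could be tested only through the SI clones. Timp3, an inhibitor of matrix proteases, was 135, 137, 190.4 and 135 RPKM against 70.9, 61.9 and 66.9 RPKM (log2 difference 1.14 ± 0.14 SE, limma adjusted p = 0.00361), and the aggrecan-cleaving protease Adamts4 25.2, 32.8, 20.5 and 18.0 RPKM against 5.93, 6.89 and 6.84 RPKM (log2 difference 1.70 ± 0.19 SE, limma adjusted p = 0.00308). SI3 lay above all feeders in each of these 7 genes.

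Some other matrix genes stayed below. Of 30 tested matrix glycoprotein and crosslinking genes, 4 were higher and 10 lower in SI d23, with a median of -0.45. The lower count was 7, 7, 21, 8, 5 of 29, 2 of 29 and 2 of 29 with SI1, SI2, SI3, SI4 and feeders 1 to 3 left out in turn, and the higher count 4 without a clone and 2 without a feeder library. Loxl4, a matrix crosslinking enzyme, was 8.97, 9.09, 9.01 and 8.48 RPKM in SI1 to SI4, against 14.3, 15.6 and 14.4 RPKM in the feeders (log2 difference -0.67 ± 0.06 SE, limma adjusted p = 0.00185). The clones were almost alike for Loxl4 and all lay below the feeders; SI d21 spanned 10.3 to 51.2 RPKM, above every SI d23 library. Of 22 matrix protease and inhibitor genes, 5 were higher and 4 lower, near the shares of all genes tested (21.2% and 14.6%), with a median of -0.07. The lower count was 3, 3, 11, 3, 1, 0 and 1 and the higher 4, 3, 6, 3, 3, 3 and 3 in the same leave-outs. Thbs1, a matrix glycoprotein that activates TGF-beta, did not pass the test at 1546, 1431, 2594 and 1397 RPKM in SI1 to SI4, against 2069, 2130.1 and 2119 RPKM in the feeders (log2 difference -0.32 ± 0.22 SE, limma adjusted p = 0.267). SI3 lay above the feeders and the other clones below, and without SI3 the difference was -0.53, limma adjusted p = 0.00117.

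**Figure D3:**
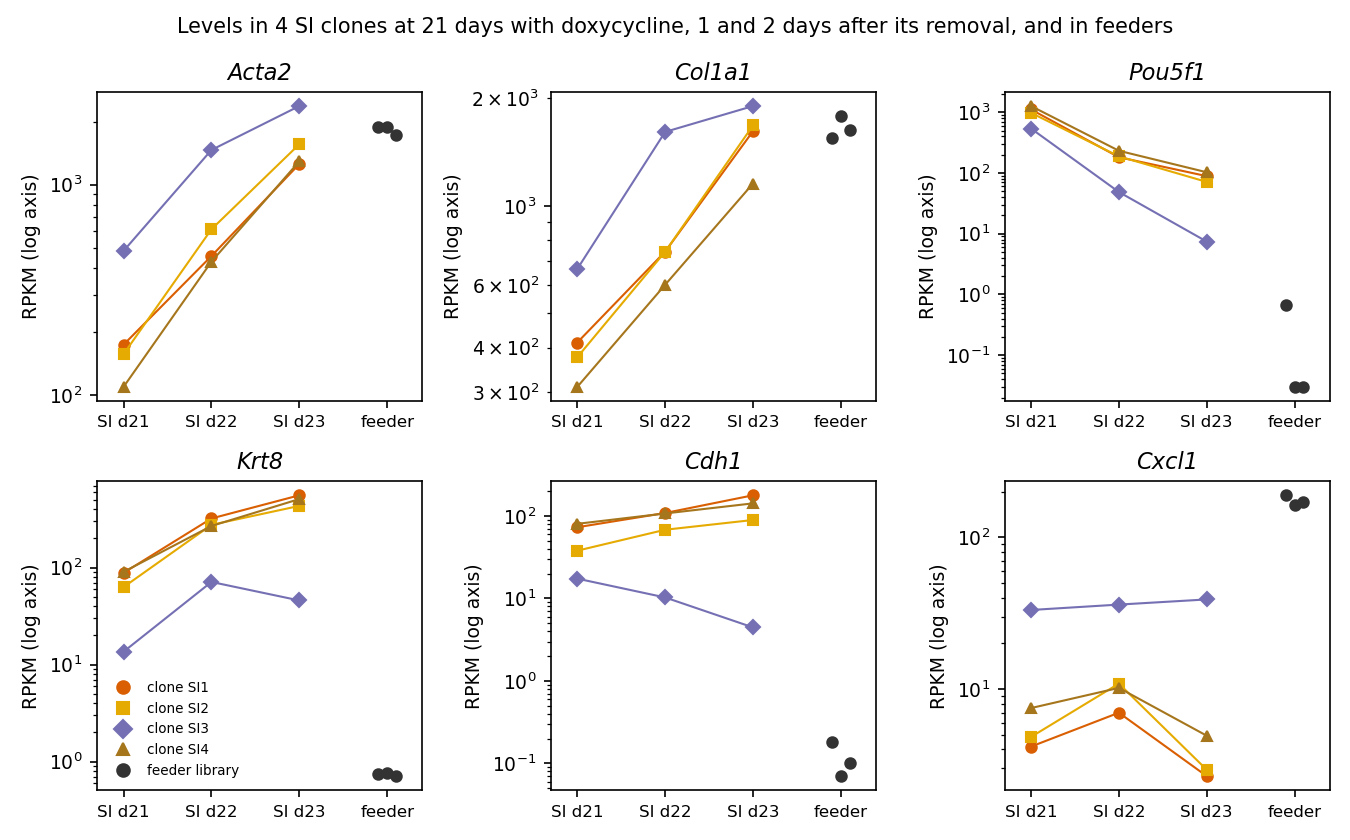
RPKM (log axis) of Acta2, Col1a1, Pou5f1, Krt8, Cdh1 and Cxcl1 in SI d21, SI d22, SI d23 and feeders, a point per library with SI clones joined by lines. At d23 Acta2 and Col1a1 come near the feeder level and Pou5f1 is nearer to it than at d21, while Krt8 and Cdh1 lie above it and Cxcl1 below it in every clone.

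The widest differences from feeders were in epithelial genes. Of 29 genes of epithelial adhesion and junctions, all tested, 26 were higher in SI d23 and none lower, and the median difference was 3.20, against 0.06 for all genes. The list's mean level was 1.77 to 4.81 in SI d23, on the log2(RPKM + 1) scale, with SI3 the lowest, and 0.72 to 0.74 in feeders. In 26 of the 29 every SI library lay above every feeder, as in 26.2% of all genes tested. Of the 29, 23 were under 1 RPKM in every feeder and passed the filter through the SI clones; of the other 6, 4 were called higher. The number called was 15 of 17, 14 of 17, 29, 14 of 17, 10, 2 and 2 with SI1, SI2, SI3, SI4 and feeders 1 to 3 left out in turn. In bulk RNA, fewer cells of a type and less RNA per cell cannot be told apart, so these levels do not say how many cells were epithelial.

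Cldn4, a claudin of tight junctions, had the largest difference of all genes tested. It was 458, 372, 23.6 and 544 RPKM in SI1 to SI4, against 0.10, 0.09 and 0.07 RPKM in the feeders. The difference was 7.65 ± 1.021 (SE), limma adjusted p = 0.00461, and 8.71 without SI3. SI d21 had 8.32 to 52.1 RPKM, so Cldn4 was higher at d23 than at d21 as well (log2 difference 2.96 ± 1.00 (SE), limma adjusted p = 0.0324). The d21 call was lost without SI1, SI2 or SI4 in the unpaired fit (adjusted p = 0.0975 to 0.154, limma), and with all clones as a block the adjusted p was 0.000978 (limma). Cdh1 (E-cadherin, the adherens junction cadherin) was 178, 89.3, 4.45 and 142 RPKM, against 0.18, 0.07 and 0.10 RPKM in the feeders (log2 difference 5.74 ± 1.13 SE, limma adjusted p = 0.0124). The call was lost without feeder 2 or feeder 3 (adjusted p = 0.0579 to 0.0601, limma). Epcam, an epithelial adhesion molecule, was 91.6, 77.9, 3.69 and 99.9 RPKM, against 0.10, 0.06 and 0.04 RPKM (log2 difference 5.34 ± 1.03 SE, limma adjusted p = 0.0121). Without feeder 2 or feeder 3 it was not past the threshold (adjusted p = 0.057 to 0.0588, limma). For both, SI3 was far below the other clones and still above all feeders. Desmoplakin (Dsp), which links desmosomes to keratin, was 67.6, 42.7, 6.03 and 56.3 RPKM against 0.25, 0.23 and 0.16 RPKM in the feeders (log2 difference 4.77 ± 0.73 SE, limma adjusted p = 0.00679). Plakoglobin (Jup), shared by both junction types, was 47.1, 44.7, 14.1 and 46.4 RPKM against 14.7, 17.0 and 15.1 RPKM, and its difference, 1.10 ± 0.40 (SE), limma adjusted p = 0.067, was past the threshold without SI3 (1.51, limma adjusted p = 5.35e-07).

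Outside the junction list, clusterin (Clu), a secreted chaperone, was 111, 73.2, 21.7 and 115 RPKM in SI1 to SI4, against 1.33, 1.25 and 1.73 RPKM in the feeders (log2 difference 4.82 ± 0.54 SE, limma adjusted p = 0.00309), and podocalyxin (Podxl), an apical sialoglycoprotein, 75.2, 42.1, 8.60 and 51.6 RPKM against 0.19, 0.16 and 0.19 RPKM (log2 difference 4.93 ± 0.64 SE, limma adjusted p = 0.00423). In both genes the clones lay above the feeders without overlap, SI3 nearest to them.

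Keratins, whose promoters with an E-box are printed above, followed the same order. Krt8 was 555, 432, 45.8 and 508 RPKM in SI1 to SI4, against 0.74, 0.76 and 0.71 RPKM in the feeders (log2 difference 7.31 ± 0.83 SE, limma adjusted p = 0.00309). Its partner Krt18 was 964, 495, 38.9 and 712 RPKM, against 4.25, 4.52 and 4.59 RPKM in the feeders (log2 difference 5.97 ± 1.016 SE, limma adjusted p = 0.00857). SI d21 held 13.6 to 90.3 RPKM of Krt8 and 2.21 to 32.8 RPKM of Krt18, and both rose to d23 (Krt18 by 4.66 ± 1.07 (SE), limma adjusted p = 0.00618; Krt8 by 2.39 ± 0.88 (SE), limma adjusted p = 0.0447). The Krt18 call against d21 was lost without SI2 (adjusted p = 0.0525, limma) and the Krt8 call without SI1, SI2 or SI4 (adjusted p = 0.120 to 0.164), both in the unpaired fit. With all clones as a block the adjusted p was 0.000153 for Krt18 and 0.000234 for Krt8 (limma). Of 5 tested simple keratins 3 were higher, of which 2 were under 1 RPKM in every feeder; the count was 2 of 4, 2 of 4, 5, 2 of 4, 2, 2 and 2 with SI1, SI2, SI3, SI4 and feeders 1 to 3 left out in turn. Krt19 was not past the threshold with all clones, at 29.4, 29.0, 3.60 and 34.3 RPKM in SI1 to SI4 and 3.92, 4.10 and 3.45 RPKM in the feeders, where SI3 overlapped the feeders (log2 difference 2.03 ± 0.68 SE, limma adjusted p = 0.0514; without SI3 2.72, limma adjusted p = 6.4e-08). Of the 24 squamous genes found, 12 had every SI library above every feeder and 2 every SI library below. Of all genes tested, 26.2% lay so above and 19.2% so below, shares that leave out genes under the filter. Of the 14 tested, 9 were called higher and 1 lower; 9 of the 14 were under 1 RPKM in every feeder, and 5 of these were among the higher. The higher count was 7 of 9, 6 of 9, 13, 6 of 9, 3, 3 and 3 in the leave-outs in that order. Krt14, the basal keratin of stratified epithelia, was 92.2, 135, 7.35 and 133 RPKM, against 0.06, 0.07 and 0.03 RPKM in the feeders (log2 difference 5.86 ± 0.94 SE, limma adjusted p = 0.00747). Perp, a desmosome protein induced by p53, was 83.1, 82.7, 19.6 and 97.7 RPKM against 6.30, 5.16 and 5.53 RPKM (log2 difference 3.21 ± 0.52 SE, limma adjusted p = 0.00759). The keratinocyte markers Krt5, Krt14, Trp63 and Sfn summed to 273, 307, 17.9 and 353 RPKM in SI1 to SI4 and 2.38 to 2.77 RPKM in the feeders, with 3 of the 4 at 1 RPKM or more in an SI library. Krt14 and Sfn made up nearly all of the sums in the clones. Krt5 was 0.40, 0.78, 0.04 and 1.96 RPKM in SI1 to SI4, and Trp63 0.56, 0.76, 0.04 and 0.92 RPKM.

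Of the 16 epithelial regulators found, 14 had every SI library above every feeder and none every SI library below. Among all genes tested these shares were 26.2% and 19.2%, which leave out genes under the filter. Of these 16, 12 were tested, 11 of them under 1 RPKM in every feeder, and 11 of the 12 were called higher. Since most passed the filter only through the SI clones, the call count over the 12 is a description. It was 2 of 3, 2 of 3, 12, 2 of 3, 2, 0 and 1 with SI1, SI2, SI3, SI4 and feeders 1 to 3 left out. Esrp1, the epithelial splicing regulator, was 8.45, 5.48, 0.33 and 9.81 RPKM in SI1 to SI4 and listed at 0 in each feeder library. Tfap2a, an AP-2 factor of surface ectoderm, was 10.5, 11.1, 2.55 and 9.72 RPKM, against 0.74, 0.65 and 0.68 RPKM in the feeders (log2 difference 2.34 ± 0.41 SE, limma adjusted p = 0.00955). Leaving out feeder 2 or feeder 3 ended this call (adjusted p = 0.0511 to 0.0533, limma). SI3 had the lowest value of both regulators. Against SI d21, 5 of 12 tested regulators had fallen at d23 and none had risen. Without SI1, SI2 or SI4 1, 2 and 2 had fallen, without SI3 8 of 14 had fallen and 2 had risen, and with clones as a block 9 of 12 had fallen.

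**Figure D4:**
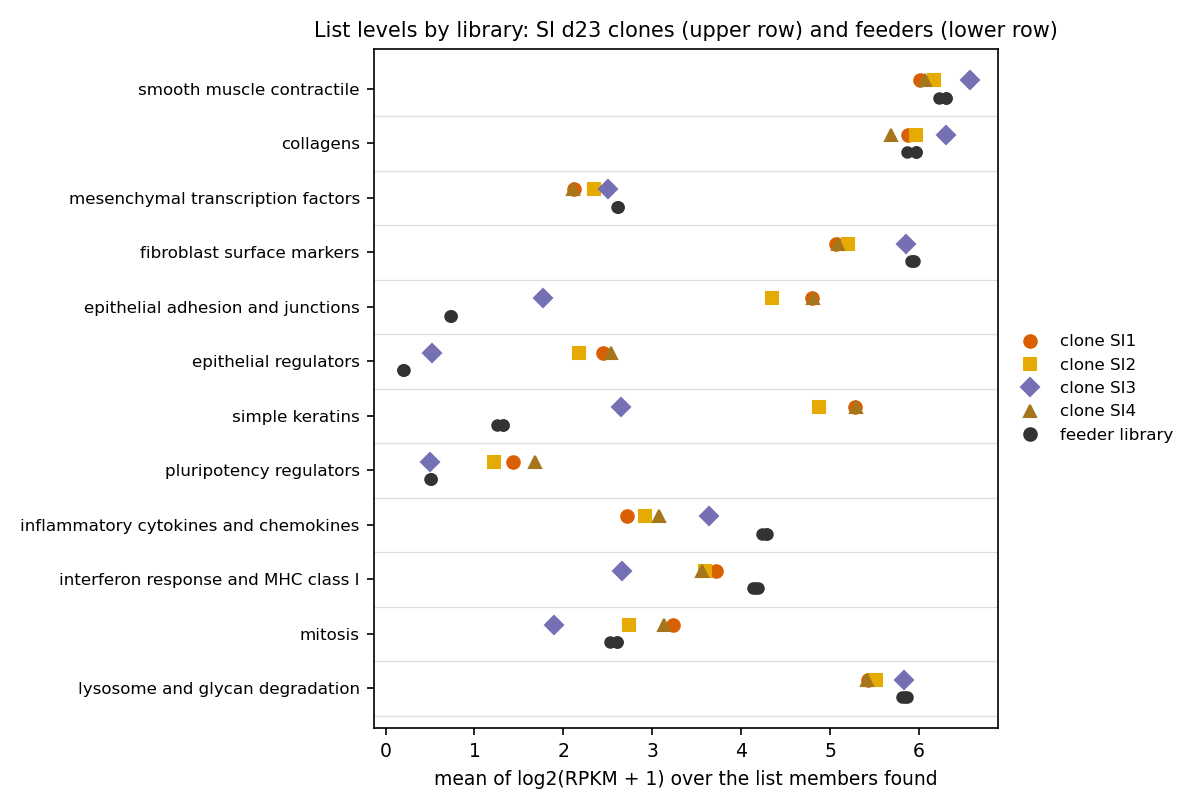
Mean log2(RPKM + 1) over the members of each gene list (x axis, log2 units) for each list (y axis), with a coloured point per SI d23 clone in the upper row of a list and a black point per feeder library in the lower row. SI3 at d23 lies at 1.77 for epithelial junction genes, between the other clones at up to 4.81 and the feeders at 0.72 to 0.74.

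Of the repressors of the epithelial state named above, Snai1 and Snai2 were lower than in feeders, while Zeb1 and Zeb2 did not pass the test with all clones. Snai1 was 16.5, 23.7, 18.9 and 13.4 RPKM in SI1 to SI4, against 25.7, 31.7 and 28.2 RPKM in the feeders (log2 difference -0.65 ± 0.18 SE, limma adjusted p = 0.0291). Snai1 was no longer past the threshold without SI1 or any 1 of the 3 feeder libraries (adjusted p = 0.0672 to 0.11, limma). Snai2 was 4.77, 6.36, 13.7 and 4.25 RPKM, against 21.4, 20.5 and 19.8 RPKM in the feeders (log2 difference -1.51 ± 0.33 SE, limma adjusted p = 0.0158). The call was lost without any 1 of the 3 feeder libraries (adjusted p = 0.0595 to 0.0674, limma). Every clone lay below every feeder in both genes, which were added after their values were seen. Zeb1 was 7.28, 8.03, 12.9 and 7.15 RPKM in SI1 to SI4, against 8.85, 9.23 and 9.30 RPKM in the feeders (log2 difference -0.08 ± 0.18 SE, limma adjusted p = 0.748). Zeb2 was 4.49, 5.08, 8.01 and 4.25 RPKM, against 7.79, 7.58 and 7.86 RPKM (log2 difference -0.47 ± 0.18 SE, limma adjusted p = 0.076). In each Zeb gene, SI3 lay above the feeders and the other clones below them, and without SI3 the differences were -0.26, limma adjusted p = 0.00879 for Zeb1 and -0.64, limma adjusted p = 9.12e-05 for Zeb2. Over all SI clones, Zeb1 spanned 7.15 to 12.9 RPKM at d23 and 2.12 to 5.87 RPKM at d21. The part of these repressors in the epithelial levels was not tested. Of 26 tested mesenchymal factors, 3 were higher and 13 lower in SI d23 (median -0.54, against 0.06 for all genes), with 4 and 19 without SI3. The lower count was 9, 13, 19, 10, 3 of 23, 2 of 23 and 2 of 23 and the higher 2, 2, 4, 3, 2, 0 and 1 with SI1, SI2, SI3, SI4 and feeders 1 to 3 left out.

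Foxc2, a forkhead factor of mesoderm, was 1.12, 1.60, 1.87 and 1.11 RPKM in SI1 to SI4, against 4.03, 4.44 and 3.90 RPKM in the feeders (log2 difference -1.09 ± 0.13 SE, limma adjusted p = 0.00361). Foxf1, a forkhead factor of splanchnic mesenchyme, was 0.52, 1.07, 1.75 and 0.81 RPKM, against 3.48, 3.78 and 3.66 RPKM (log2 difference -1.22 ± 0.19 SE, limma adjusted p = 0.00692). Prrx1, a homeobox factor of limb mesenchyme, split by clone: it was 49.9, 53.7, 116 and 51.8 RPKM in SI1 to SI4 and 124, 103 and 113 RPKM in the feeders, with SI3 inside the feeder range (log2 difference -0.83 ± 0.29 SE, limma adjusted p = 0.0572; without SI3 -1.11, limma adjusted p = 6.44e-06). Foxd1, a forkhead factor of kidney stroma, ran the other way, at 6.73, 10.9, 3.00 and 4.27 RPKM against 0.90, 0.71 and 0.72 RPKM in the feeders (log2 difference 1.90 ± 0.34 SE, limma adjusted p = 0.00959). Foxd1 was under 1 RPKM in every feeder and could be tested only through the SI clones. Without feeder 2 or feeder 3 it was not past the threshold (adjusted p = 0.0517 to 0.0543, limma).

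Fibroblast surface genes were lower in 8 of 19 tested and higher in 1 (median -0.65), and with libraries rescaled 8 were lower and 0 higher. The lower count was 6, 5, 14, 6, 4 of 18, 2 of 18 and 2 of 18 in the same leave-outs, and the higher count 3 without SI3 and 0 in the others. Cd44, the hyaluronan receptor, was 59.4, 62.4, 82.0 and 65.4 RPKM in SI1 to SI4, against 118, 109 and 106 RPKM in the feeders (log2 difference -0.72 ± 0.12 SE, limma adjusted p = 0.00776). Cd34, a sialomucin of adventitial fibroblasts and progenitors, was 0.57, 0.83, 0.98 and 0.94 RPKM against 3.29, 2.66 and 2.89 RPKM (log2 difference -1.11 ± 0.11 SE, limma adjusted p = 0.00234), and SI d21, at 3.12 to 4.84 RPKM, was above SI d23. Ly6a (Sca-1) was 53.5, 47.1, 54.2 and 45.5 RPKM, against 84.9, 71.4 and 77.6 RPKM in the feeders (log2 difference -0.63 ± 0.10 SE, limma adjusted p = 0.00653), and was 103 to 225 RPKM in SI d21. All 4 clones lay below the feeders for these 3 genes. Thy1, a fibroblast surface glycoprotein lost early in reprogramming, was 217, 278, 574 and 238 RPKM in SI1 to SI4, against 530.3, 540.0 and 543 RPKM in the feeders. SI3 exceeded the feeders and the others stood well below them; the difference was -0.83 ± 0.31 (SE), limma adjusted p = 0.0713, and -1.14, limma adjusted p = 1.63e-05 without SI3.

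All 4 reprogramming factors were below their d21 levels and still differed from the feeders, Pou5f1 and Sox2 above them and Klf4 and Myc below. The labels do not say whether doxycycline turned these genes on. Reads from any doxycycline-driven copies and the native genes cannot be told apart in these values. Pou5f1 (Oct4), the core pluripotency factor, was 88.7, 71.2, 7.41 and 103 RPKM in SI1 to SI4, against 0.66, 0.03 and 0.03 RPKM in the feeders, and 539 to 1265 RPKM in SI d21. Every clone remained above every feeder (log2 difference 5.34 ± 0.84 SE, limma adjusted p = 0.00723), though Pou5f1 had fallen by 4.25 from d21 on the log2 scale. Feeder 1 held more than the other feeders. Sox2 was 1.51, 2.17, 2.06 and 2.75 RPKM against 0.26, 0.16 and 0.11 RPKM in the feeders (log2 difference 1.40 ± 0.14 SE, limma adjusted p = 0.00241) and 82.0 to 155 RPKM in SI d21. SI3 was within the other clones for Sox2. Pou5f1 and Sox2 were under 1 RPKM in every feeder, so both could be tested only through the SI clones. Klf4 and Myc, which fibroblasts express themselves, were below the feeders. Klf4 was 6.54, 6.31, 9.24 and 7.10 RPKM, against 14.3, 15.1 and 13.7 RPKM in the feeders (log2 difference -0.90 ± 0.12 SE, limma adjusted p = 0.00478), and Myc 12.1, 11.7, 14.9 and 15.4 RPKM, against 22.3, 25.1 and 22.6 RPKM (log2 difference -0.75 ± 0.11 SE, limma adjusted p = 0.00628). The falls from d21 were called for all 4 factors in every leave-out.

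Other pluripotency genes were low. Of the 28 on the list 13 had every SI library above every feeder and 2 every SI library below. Of all genes tested, 26.2% lay so above and 19.2% so below. The 28 include 14 under the filter, which those shares do not cover. Only 14 were tested, of which 6 were called higher and 2 lower in SI d23; 9 of the 14, with all 6 of the higher, were under 1 RPKM in every feeder and passed the filter through the SI clones. The higher count was 0 of 5, 0 of 5, 12, 0 of 5, 0, 0 and 0 and the lower 1, 1, 2, 1, 0, 0 and 0 with SI1, SI2, SI3, SI4 and feeders 1 to 3 left out. Nanog, a factor of the pluripotent network, was under the filter at 0.63, 0.37, 0.12 and 2.76 RPKM in SI1 to SI4 and 0.10, 0.14 and 0.09 RPKM in the feeders, against 5.32 to 41.1 RPKM in SI d21. Only SI4 passed 1 RPKM. Sall4, a zinc finger factor of stem cells, was 4.62, 2.9, 0.38 and 3.19 RPKM, against 0.01, 0 and 0 RPKM in the feeders (log2 difference 1.74 ± 0.43 SE, limma adjusted p = 0.0229). Leaving out any 1 of the 3 feeder libraries ended this call (adjusted p = 0.0732 to 0.0828, limma).

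Many inflammatory cytokine and chemokine genes were below the feeders. Of 24 tested, 16 were lower and 1 higher in SI d23, against 14.6% lower and 21.2% higher of all genes tested, and the median difference was -1.15. The lower count was 16 of 23, 16 of 23, 20, 18 of 23, 12, 8 and 8 with SI1, SI2, SI3, SI4 and feeders 1 to 3 left out, and the higher count 3 without SI3 and 0 in the others. Cxcl5, a neutrophil chemokine, was 3.56, 5.41, 81.1 and 5.84 RPKM in SI1 to SI4, against 345, 257 and 306 RPKM in the feeders (log2 difference -4.73 ± 0.93 SE, limma adjusted p = 0.0125). Cxcl5 was no longer past the threshold without feeder 2 or feeder 3 (adjusted p = 0.0581, limma). Cxcl1, of the same chemokine family, was 2.67, 2.94, 39.0 and 4.93 RPKM against 189, 164 and 172 RPKM (log2 difference -4.52 ± 0.78 SE, limma adjusted p = 0.00904). The call was lost without feeder 2 (adjusted p = 0.0501, limma). As a share of the feeder mean, SI3 had 26.8% of Cxcl5 and 22.3% of Cxcl1, and the other clones 1.18% to 2.81%. Cxcl1 was already low in SI d21, at 4.18 to 33.2 RPKM. Against SI d21, 10 of 21 tested genes of the list were higher at d23 and 0 lower (22.7% and 32.0% of all genes tested). The higher count was 8, 6 of 20, 19 of 22 and 8 with SI1 to SI4 left out in turn. Ccl2, a monocyte chemokine, was 37.7, 63.2, 201 and 55.2 RPKM, against 524, 514 and 523 RPKM in the feeders (log2 difference -2.84 ± 0.50 SE, limma adjusted p = 0.00946). Without feeder 2 or feeder 3 it was not past the threshold (adjusted p = 0.0505 to 0.0524, limma). The prostaglandin E synthase Ptges was 18.7, 19.2, 24.5 and 20.8 RPKM, against 60.4, 61.6 and 61.0 RPKM in the feeders (log2 difference -1.52 ± 0.10 SE, limma adjusted p = 0.000891), here with SI3 close to the other clones. Cxcl14, a chemokine of skin, showed no such order: SI3 had 183 RPKM and the others 41.0 to 43.1 RPKM, against 64.0, 59.9 and 69.0 RPKM in the feeders (log2 difference -0.07 ± 0.51 SE, limma adjusted p = 0.921; without SI3 -0.59, limma adjusted p = 0.000105).

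Interferon-induced and MHC class I genes were lower in 15 of 29 tested and higher in 0 (median -0.72), and 20 had no overlap between the libraries of the groups, on the lower side (19.2% of all genes tested). Without SI3 2 were called higher, and the lower count was 15, 10, 20, 8, 5, 3 and 3 with SI1, SI2, SI3, SI4 and feeders 1 to 3 left out. Against SI d21, 18 of 27 tested genes of the list were higher at d23 and 0 lower. With SI1 to SI4 left out in turn that higher count was 6, 6, 22 of 28 and 6, with 1 lower without SI3. SI3 did not stand nearest to the feeders here: the list's mean level was 2.65 in SI3, 3.56 to 3.71 in the other clones and 4.13 to 4.19 in the feeders. Ifit1, an interferon-induced antiviral protein, was 7.17, 6.14, 1.78 and 5.82 RPKM in SI1 to SI4, against 34.3, 30.7 and 31.0 RPKM in the feeders (log2 difference -2.52 ± 0.35 SE, limma adjusted p = 0.00509). Ifit3 was 2.22, 1.82, 1.25 and 1.47 RPKM against 9.88, 10.9 and 9.51 RPKM (log2 difference -2.05 ± 0.13 SE, limma adjusted p = 0.000891), and the interferon-induced chemokine Cxcl10 1.84, 2.26, 0.60 and 2.17 RPKM against 7.94, 9.5 and 9.41 RPKM (log2 difference -1.92 ± 0.25 SE, limma adjusted p = 0.00415). SI3 was the lowest clone in each of the 3 genes. B2m, the light chain of MHC class I, did not pass the test, at 360.4, 414, 632 and 398 RPKM in SI1 to SI4 and 689.7, 569 and 624 RPKM in the feeders, with SI3 inside the feeder range (log2 difference -0.51 ± 0.19 SE, limma adjusted p = 0.0746; without SI3 -0.68, limma adjusted p = 0.00034).

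Leukocyte markers did not all lie on the same side of the feeders. The 7 macrophage markers summed to 27.8, 32.4, 47.9 and 26.5 RPKM in SI1 to SI4 and 41.5 to 42.8 RPKM in the feeders; their part in the chemokine and interferon results was not tested. Of 17 macrophage and leukocyte genes 2 were higher and 1 lower, the lower count being 8 without SI3 and 0 in every other leave-out, and the higher count 1 in each leave-out but that of SI3. With libraries rescaled 2 were higher and 2 lower. Laptm5, a lysosomal protein of blood cells, was 12.7, 12.6, 11.4 and 9.25 RPKM, against 4.81, 5.30 and 4.75 RPKM in the feeders (log2 difference 1.06 ± 0.11 SE, limma adjusted p = 0.00275), and 21.3 to 60.5 RPKM in SI d21. Lyz2, the lysozyme of macrophages, was 151, 180.1, 293 and 150.2 RPKM, against 155, 151 and 164 RPKM (log2 difference 0.25 ± 0.23 SE, limma adjusted p = 0.406).

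The genes furthest below the feeders included several outside these lists. U90926, a transcript with no protein named in the files, was 0.21, 0.50, 2.40 and 0.65 RPKM in SI1 to SI4, against 50.4, 52.2 and 43.3 RPKM in the feeders (log2 difference -4.79 ± 0.32 SE, limma adjusted p = 0.000899). With all clones it was further below the feeders than any other gene tested, and without SI3 Cxcl5 was the furthest below, at -5.69. Coch (cochlin), a secreted protein of the inner ear, was 0.40, 0.52, 1.86 and 0.54 RPKM against 20.6, 18.4 and 16.4 RPKM (log2 difference -3.47 ± 0.25 SE, limma adjusted p = 0.000972). Hmga1, a chromatin architectural protein of dividing cells, was 7.13, 10.6, 16.7 and 9.40 RPKM, against 83.2, 83.2 and 72.0 RPKM in the feeders (log2 difference -2.81 ± 0.24 SE, limma adjusted p = 0.00138). Serpinb2, a plasminogen activator inhibitor, was 1.60, 3.54, 2.95 and 5.29 RPKM against 28.5, 27.6 and 22.6 RPKM (log2 difference -2.71 ± 0.27 SE, limma adjusted p = 0.0021). The clones had 0.432% to 4.94% of the feeder mean for U90926 and 2.17% to 10.1% for Coch, with SI3 the highest for both. U90926 was already low in SI d21, at 0.11 to 1.54 RPKM.

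Some genes stood outside both feeders and SI d21, in comparisons that share the SI d23 libraries. Of those below, Pdgfb, Rflna and Sox10 were under 1 RPKM in every feeder and every SI d21 library. They could be tested only through the SI d23 clones, so their place among the higher genes follows in part from the filter. Pdgfb, a growth factor for mesenchymal cells, was 25.9, 24.8, 3.82 and 26.1 RPKM in SI1 to SI4, against 0.60, 0.77 and 0.67 RPKM in the feeders (log2 difference 3.37 ± 0.60 SE, limma adjusted p = 0.0096) and 0.21 to 0.37 RPKM in SI d21. Leaving out feeder 2 or feeder 3 ended this call (adjusted p = 0.0511 to 0.0523, limma). Rflna, a filamin partner, was 8.08, 9.91, 1.67 and 10.5 RPKM against 0.09, 0.04 and 0.14 RPKM in the feeders (log2 difference 2.77 ± 0.49 SE, limma adjusted p = 0.00931) and 0.08 to 0.14 RPKM in SI d21. Rflna was no longer past the threshold without feeder 2 (adjusted p = 0.0528, limma). Below both was Ramp3, a partner of calcitonin-family receptors, at 1.62, 2.22, 5.28 and 1.90 RPKM, against 22.9, 21.0 and 20.9 RPKM in the feeders (log2 difference -2.68 ± 0.28 SE, limma adjusted p = 0.00257) and 9.72 to 41.6 RPKM in SI d21. The glucuronosyltransferase entries Ugt1a7c, Ugt1a8 and Ugt1a9 were also below both, but they share exons and their values are not separate measurements; Ugt1a7c was 2.02, 2.68, 6.03 and 2.63 RPKM against 13.1, 11.5 and 12.7 RPKM in the feeders (log2 difference -1.71 ± 0.27 SE, limma adjusted p = 0.00713). Sox10, a factor of neural crest and its glia, was 16.2, 7.46, 3.01 and 7.30 RPKM in SI1 to SI4, against 0.35, 0.41 and 0.41 RPKM in the feeders (log2 difference 2.59 ± 0.42 SE, limma adjusted p = 0.00774) and 0.05 to 0.12 RPKM in SI d21. SI1 was highest and SI3 lowest of the clones.

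Signalling genes were called on both sides, as were all genes tested (21.2% higher and 14.6% lower). The medians of the 3 lists below were 0.10, 0.08 and -0.14 in the order given, against 0.06 for all genes. Of 19 tested serum, YAP and TGF-beta response genes 7 were higher and 4 lower; the counts were 6, 6, 9, 4, 3, 2 and 2 higher and 4, 4, 5, 3, 2, 1 and 1 lower with SI1, SI2, SI3, SI4 and feeders 1 to 3 left out. Ccn1, a YAP target, was 303, 334, 322 and 293 RPKM in SI1 to SI4 and 303, 327 and 317 RPKM in the feeders, with full overlap (log2 difference -0.01 ± 0.08 SE, limma adjusted p = 0.893), and 62.6 to 95.4 RPKM in SI d21. Axl, a receptor tyrosine kinase of mesenchymal cells, was 90.5, 105, 128 and 84.7 RPKM, against 195, 213 and 201 RPKM in the feeders (log2 difference -1.004 ± 0.14 SE, limma adjusted p = 0.00516). Of 16 immediate early factors 4 were higher and 4 lower; in the leave-outs the counts were 3, 5, 6, 3, 3, 2 and 1 higher and 3, 4, 5, 4, 2, 1 and 1 lower. Fosl1, an AP-1 factor, was 9.24, 9.93, 15.9 and 10.8 RPKM, against 37.0, 41.2 and 36.2 RPKM in the feeders (log2 difference -1.68 ± 0.17 SE, limma adjusted p = 0.00221), while Fosb of the same family was 3.30, 2.17, 2.09 and 3.53 RPKM against 0.84, 0.92 and 0.81 RPKM (log2 difference 1.002 ± 0.16 SE, limma adjusted p = 0.00732). Of 38 BMP, WNT and FGF genes 9 were higher, 6 of them under 1 RPKM in every feeder, and 11 lower, with 4 of 33, 4 of 33, 12, 4 of 33, 3, 3 and 2 and 8, 7, 20, 6, 1, 0 and 0 in the leave-outs. Axin2, a WNT target, was 3.77, 6.23, 2.49 and 4.83 RPKM, against 0.42, 0.57 and 0.49 RPKM in the feeders (log2 difference 1.79 ± 0.23 SE, limma adjusted p = 0.00415). Fosb and Axin2 were under 1 RPKM in every feeder and could be tested only through the SI clones.

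Cell cycle genes were near feeder level. None of the 23 tested mitosis genes was called in either direction, with a median difference of 0.10, and an unadjusted p under 0.05 was reached by 0 on the higher and 0 on the lower side. Without SI3 11 were higher and 0 lower, and in every other leave-out 0 were called. The list's mean level was 1.90 to 3.23 in SI d23, with SI3 the lowest, 2.52 to 2.60 in the feeders and 4.67 to 4.84 in SI d21, and all 23 genes had fallen from d21, in every leave-out. Cdc20, the activator of the anaphase-promoting complex, was 15.2, 12.2, 6.18 and 16.6 RPKM in SI1 to SI4 and 11.9, 12.7 and 12.4 RPKM in the feeders (log2 difference -0.06 ± 0.29 SE, limma adjusted p = 0.883). SI3 lay below the feeders and SI1 and SI4 above. Of 24 DNA replication genes 1 was higher and 2 lower; 13 were higher without SI3 and 0 in every other leave-out, and the lower count was 1 of 23, 1, 2, 1 of 23, 1, 1 of 23 and 1. Rrm2, a ribonucleotide reductase subunit, was 11.04, 9.82, 6.89 and 9.92 RPKM, against 18.9, 19.5 and 17.9 RPKM in the feeders (log2 difference -0.94 ± 0.14 SE, limma adjusted p = 0.0065). SI3 was lowest, and no clone reached the feeders. Of 22 p53 targets and CDK inhibitors 8 were higher and 5 lower; the higher count was 7, 7, 8, 7, 4, 3 and 3 and the lower count 3, 4, 8, 3, 3, 3 and 3 in the leave-outs, and with libraries rescaled 7 were higher and 7 lower. Btg2, an antiproliferative p53 target, was 60.1, 53.9, 45.2 and 53.2 RPKM, against 27.2, 26.6 and 27.6 RPKM in the feeders (log2 difference 0.94 ± 0.10 SE, limma adjusted p = 0.00243). Cdkn2a, the locus of p16 and p19Arf, was 79.2, 114, 56.6 and 97.0 RPKM, against 38.2, 40.1 and 41.4 RPKM (log2 difference 1.06 ± 0.22 SE, limma adjusted p = 0.0137). The call was lost without any 1 of the 3 feeder libraries (adjusted p = 0.0543 to 0.0624, limma). Cdkn1a (p21) was 180.3, 243, 251 and 199.6 RPKM in SI1 to SI4 and 206, 212 and 202 RPKM in the feeders, with overlap (log2 difference 0.07 ± 0.13 SE, limma adjusted p = 0.693).

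With all libraries used, imprinted and chromatin genes were called higher more often than lower. Of all genes tested, 21.2% were called higher and 14.6% lower. Of 15 tested imprinted genes, which are expressed from the allele of a single parent, 7 were higher and 3 lower; the higher count was 8, 5, 8, 5, 5, 1 and 3 and the lower 2, 2, 4, 2, 1, 1 and 1 with SI1, SI2, SI3, SI4 and feeders 1 to 3 left out. Mest was 36.7, 21.2, 11.2 and 48.0 RPKM in SI1 to SI4, against 2.27, 1.78 and 2.36 RPKM in the feeders (log2 difference 3.09 ± 0.44 SE, limma adjusted p = 0.00537). Peg10 was 589, 376, 30.0 and 340.2 RPKM against 4.31, 4.31 and 4.4 RPKM (log2 difference 5.37 ± 0.93 SE, limma adjusted p = 0.00892). Without feeder 2 it was not past the threshold (adjusted p = 0.0506, limma). In both the clones lay above the feeders, SI3 nearest to them. Dlk1, a growth regulator of the Dlk1-Meg3 region, was 1.02, 1.11, 1.62 and 0.67 RPKM against 8.16, 8.77 and 8.62 RPKM (log2 difference -2.19 ± 0.15 SE, limma adjusted p = 0.000899). Igf2 spread widely between clones, at 293, 141, 82.5 and 45.7 RPKM in SI1 to SI4 against 73.2, 71.8 and 73.8 RPKM in the feeders (log2 difference 0.61 ± 0.55 SE, limma adjusted p = 0.395). Of 16 chromatin and DNA methylation genes 9 were higher and none lower, with 5 of 14, 5 of 14, 14, 5 of 14, 3, 1 and 1 in the leave-outs. Dnmt3a, a de novo DNA methyltransferase, was 9.55, 7.52, 4.12 and 7.81 RPKM, against 1.91, 2.34 and 2.16 RPKM in the feeders (log2 difference 1.35 ± 0.23 SE, limma adjusted p = 0.00848).

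Of 29 tested Hox genes, which set position along the body axis, 9 were higher and 1 lower, and 4 of the 9 were under 1 RPKM in every feeder; the counts were 2 of 25, 0 of 25, 10, 1 of 25, 0, 0 and 0 higher and 0, 1, 6, 0, 0, 0 and 0 lower in the leave-outs. Hoxb9 was 9.46, 14.3, 14.3 and 10.4 RPKM in SI1 to SI4 and 12.2, 11.3 and 11.5 RPKM in the feeders (log2 difference 0.03 ± 0.15 SE, limma adjusted p = 0.883), and 1.86 to 4.97 RPKM in SI d21. Of 14 trophoblast markers 9 had every SI library above every feeder and none below. Among all genes tested these shares were 26.2% and 19.2%, which leave out genes under the filter. Of the 14, 8 were tested, 7 of these under 1 RPKM in every feeder. Their count called higher, 5 (in the leave-outs 1 of 2, 1 of 2, 8, 0 of 2, 0, 0 and 0), thus follows in part from the filter. Elsewhere, 3 of 7 tested neural markers were higher and 2 lower, with 2 of 6, 2 of 6, 4, 2 of 6, 1, 1 and 1 and 0, 0, 2, 0, 0, 0 and 0. Of 5 tested bone and cartilage genes 0 were higher and 2 lower, with 0 of 4, 0 of 4, 1, 0 of 4, 0 of 3, 0 of 3 and 0 of 3 higher and 2, 2, 4, 2, 0, 0 and 0 lower in the leave-outs. Col2a1, the cartilage collagen, was 0.78, 0.60, 0.80 and 0.60 RPKM, against 3.24, 4.11 and 3.22 RPKM in the feeders (log2 difference -1.41 ± 0.11 SE, limma adjusted p = 0.00107). Ddx3y, a Y-linked helicase gene, was 13.5, 20.8, 9.88 and 12.7 RPKM in SI1 to SI4, against 7.24, 5.70 and 5.17 RPKM in the feeders (log2 difference 1.08 ± 0.23 SE, limma adjusted p = 0.0144). Leaving out feeder 2 or feeder 3 ended this call (adjusted p = 0.0666 to 0.0675, limma). All 7 libraries thus held Y-linked RNA, the clones more than the feeders.

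Lysosomal and lipid genes that were called with all libraries were lower than in feeders. Of 21 lysosomal genes 9 were lower and none higher (median -0.36), and the lower count was 3, 3, 15, 2, 1, 1 and 1 with SI1, SI2, SI3, SI4 and feeders 1 to 3 left out, with 1 higher without SI3. Gla, the lysosomal galactosidase, was 5.46, 6.78, 6.94 and 5.41 RPKM in SI1 to SI4, against 12.2, 10.1 and 12.2 RPKM in the feeders (log2 difference -0.81 ± 0.12 SE, limma adjusted p = 0.00548). Of 14 adipogenic and lipid genes 5 were lower and none higher, with 5, 5, 6, 4, 3, 2 and 2 lower in the leave-outs; 5 were higher without SI3 and 0 in the other leave-outs. Fasn, the fatty acid synthase, was 27.0, 24.6, 24.4 and 24.2 RPKM, against 34.5, 43.9 and 40.9 RPKM in the feeders (log2 difference -0.64 ± 0.09 SE, limma adjusted p = 0.00604), and Insig1, a sterol sensor, 12.2, 10.3, 11.8 and 13.5 RPKM against 20.6, 19.3 and 22.4 RPKM (log2 difference -0.75 ± 0.10 SE, limma adjusted p = 0.00461). All clones lay below all feeders in both genes. Of 23 glycolysis and hypoxia genes 3 were higher and 3 lower, with 1 of 21, 1 of 21, 7, 1 of 21, 1, 0 and 0 and 2, 3, 3, 1, 0, 0 and 0 in the leave-outs, and with libraries rescaled 2 and 5. Of 21 oxidative phosphorylation genes 2 were higher and 3 lower, with 2, 2, 4, 2, 2, 0 and 0 higher and 1, 2, 3, 2, 1, 1 and 1 lower in the leave-outs, and 2 and 7 when rescaled. Cox4i1, a subunit of cytochrome oxidase, was 172, 199, 185 and 184 RPKM, against 257, 269.5 and 256 RPKM in the feeders (log2 difference -0.49 ± 0.08 SE, limma adjusted p = 0.00674).

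SI3 held less of the differences that the other clones shared. Of 902 genes whose mean in SI1, SI2 and SI4 was at least 2-fold above the feeder mean, 106 (11.8%) were so in SI3, with a median log2 difference of 0.36 in SI3 and 1.503 in the others. Of 389 genes at least 2-fold below, 83 (21.3%) were so in SI3, with medians of -0.60 and -1.29. These genes were chosen on the other clones, and the comparison is a description. Krt17, a keratin of stressed epithelia, was 85.2, 81.4, 1.42 and 91.4 RPKM in SI1 to SI4 and 0.10, 0.06 and 0.04 RPKM in the feeders, and Ccn5, a matricellular growth regulator, 14.7, 16.8, 85.8 and 12.6 RPKM in SI1 to SI4 and 56.7, 62.4 and 61.3 RPKM in the feeders. SI3 was far below the other clones for Krt17, and above both the other clones and the feeders for Ccn5. Ccl11 (eotaxin) was 2.12, 4.31, 30.3 and 3.65 RPKM in SI1 to SI4 and 11.5, 10.4 and 10.3 RPKM in the feeders, again with SI3 highest. Aldh1a3, which makes retinoic acid, was 21.5, 20.9, 1.96 and 31.0 RPKM in SI1 to SI4 and 1.29, 1.31 and 0.95 RPKM in the feeders, with SI3 nearest to the feeders.

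**Figure D5:**
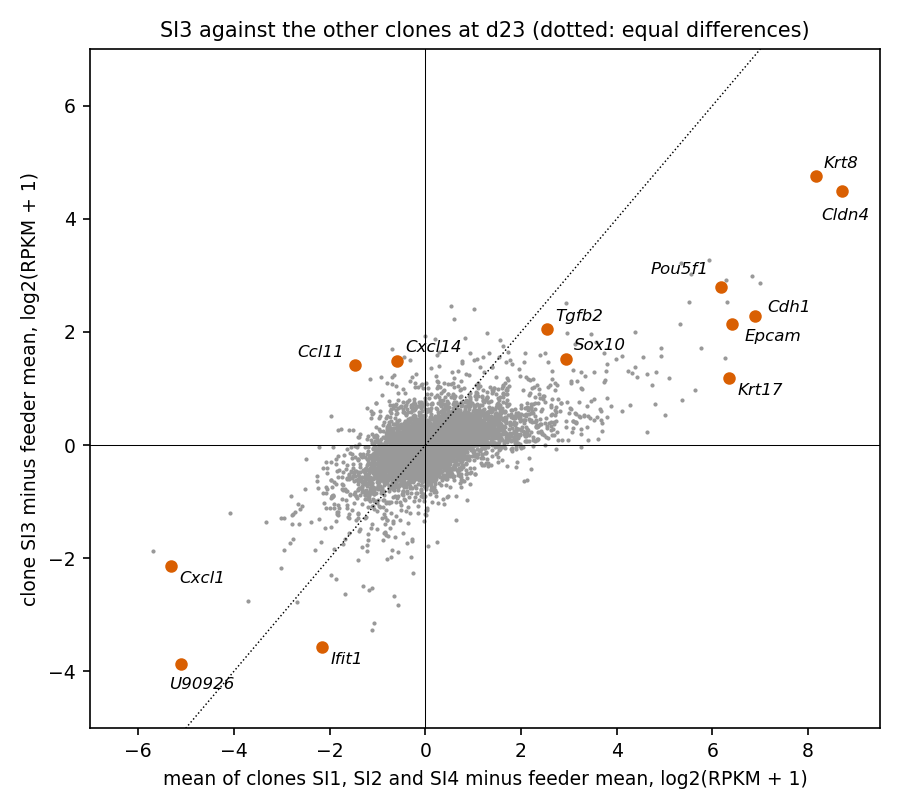
Log2 difference from the feeder mean of SI3 (y axis) against the mean of SI1, SI2 and SI4 (x axis), a point per gene, on the log2(RPKM + 1) scale. Of the 902 genes at least 2-fold up in the other clones, 106 are so in SI3. The dotted line marks equal differences, and the labelled Krt8, Cldn4, Cdh1, Epcam and Krt17 lie below it.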

How the data were processed

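One deposited table gives a value for 22632 genes in each of the 47 libraries. No label or header names its unit, and the authors' values behave as RPKM (reads per kilobase of gene, per mapped megaread). Multiplied by the exon length of GENCODE M21, found for 20750 gene IDs, they account for a share of 0.963 to 0.997 of the reads in the 7 libraries compared. The submitters' processing notes list CASAVA 1.8 and mm9 and give them no role; the alignment, annotation and filtering were not described in what was used here. Per the labels' protocols, RNA was cleaned on Qiagen columns with DNase and made into TruSeq libraries. Times follow each library's characteristics, from which the treatment text differs for d22 and d23.

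Genes with at least 1 RPKM in at least 3 of 7 libraries (4 of 8 against SI d21) were fitted with limma 3.58.1 in R 4.3.3 (lmFit, eBayes with trend) on log2(RPKM + 1), two-sided, with Benjamini-Hochberg adjustment over all genes tested and a threshold of 0.05. The RPKM are not counts, so no count test was used. Distances were tested by exact permutation with scipy 1.17.1, numpy 2.4.6 and pandas 2.3.3 under Python 3.11.15, and plots were drawn with matplotlib 3.10.9. Of 776 places in 37 gene lists 768 were found in the table. The comparison, the lists and the rule for naming genes were chosen with earlier results of these data known. The rule took the largest and the cleanest differences, up to 3 genes of each list with the smallest adjusted p and the highest gene of each list that did not pass, a fixed set of markers, genes outside both feeders and SI d21, and genes where SI3 stood apart; fewer are named where lists repeat, and some are not reported here. SI clones pair d23 with d21: same-clone deviations correlated at 0.339 to 0.549. Deviations of different clones correlated at -0.493 to 0.361, so the ranges overlapped. Alternatives were another pseudocount, no filter, rescaling, other estimates of spread, a replicate block and each library left out.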

Additional observations from a re-analysis of the deposited data

Results flagged for a closer look

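In a group of 4, a library was singled out where its gap to the nearest other library made up more than 0.829 of the group's range, a limit that chance passes in about 1 in 20 groups. Some of the genes were named because SI3 stood apart in them, so how often SI3 appears here is not evidence on SI3. SI3 at d23 was far below the other clones for Jup (14.1 RPKM), Tfap2a (2.55), Pdgfb (3.82) and Krt17 (1.42 RPKM). It was far above them for Cxcl5 (81.1 RPKM), Cxcl1 (39.0), Coch (1.86), Ccl2 (201), Cxcl14 (183) and Ccl11 (30.3 RPKM), for Thbs1 (2594), Timp3 (190.4), Prrx1 (116), Thy1 (574), Zeb1 (12.9) and Ccn5 (85.8 RPKM), and for Ramp3 (5.28) and Ugt1a7c (6.03 RPKM). In mean log2(RPKM + 1), the list of epithelial junction genes was 1.77 in SI3, against 4.35 to 4.81 in the other clones, the simple keratins 2.65, against 4.87 to 5.29, and the interferon and MHC class I genes 2.65, against 3.56 to 3.71. The bone and cartilage genes were at 1.39 in SI3, against 1.25 to 1.27 in the others. In Fasn, SI1 was singled out, at 27.0 RPKM against 24.2 to 24.6 RPKM in the other clones, a narrow range. At d21, SI3 was already the clone nearest to the feeders, at a distance of 0.868 against 1.22 to 1.24. The part of cell composition in the SI3 values was not tested.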

How the results depend on the processing

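The number of genes called in SI d23 against feeders ran between 261 and 4671 higher and between 349 and 2946 lower when libraries were left out. Feeder numbers share only a number with the SI clones (correlations of -0.009 to 0.137 for the same number and -0.119 to 0.050 for others), and with the replicate number as a block 171 were higher and 216 lower. With the spread taken from all 47 libraries 1846 were higher and 969 lower. A pseudocount of 0.1 gave 2564 and 1703, no filter 2138 and 1677, rescaling 2107 and 2301, and a spread per group 3079 and 2070. Against SI d21 the leave-outs gave 1663 to 3551 higher and 2463 to 4470 lower, and the clone block 3123 and 4353. The distance differences kept their sign under every alternative run. With clone numbers as a replicate block they were -0.505 and -0.468 with p = 0.125 (SI and SC clones share only a number, so only the SI d21 pairs are the same clones), and with a clone left out -0.548 to -0.414 (SI d21) and -0.512 to -0.377 (SC d23), each at the smallest p the numbers allow (exact permutation tests). Signs turned only in named genes that were not past the threshold: Col1a1 (log2 difference -0.17 to 0.068 with a library left out, 0.068 with the block), Ccn1 (-0.046 to 0.017, and 0.017), Hoxb9 (-0.052 to 0.13, and -0.071 when rescaled), Cdc20 (-0.21 to 0.22), Cdkn1a (-0.0044 to 0.15, and -0.043 when rescaled) and Cxcl14 (-0.59 to 0.12, and 0.12 with the block). The cause was not tested. The clones and feeders are 4 and 3 libraries of 1 series, reads per library are known only up to a multiple, and genes under about 1 RPKM were not tested.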
